A study of Mus musculus with 6 samples.

Results

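The genes described here build or remodel actin filaments in intestinal epithelial cells, and many of their products lie in the brush border. Of 43 such genes, 39 had at least 1 probe set with that gene as its single symbol, among 18193 genes named in this way on the array. Where a gene had several, the probe set with the highest mean over the 6 arrays stood for it. The list was chosen by function around Limk2, which was selected on its own KO and WT values on these arrays, so the values of Limk2 are a description and carry no test. The other 4 were not analysed: Actr2 and Baiap2l2 are among those with no probe set of their own under a single symbol, and the 2 probe sets of Arpc1b are shared with a second symbol. Crypt epithelium of the jejunum, the middle stretch of the small intestine, came from 3 mice labelled Sox9 deficient (KO 1 to KO 3) and 3 littermate controls labelled wild type (WT 1 to WT 3). All were C57BL/6 mice of 3 months, and total RNA of each mouse was hybridised to 1 single-colour array. The labels give neither the promoter of any Cre nor the sex of the mice, so which cells lost Sox9 is not known from them. Values are log2 GCRMA intensities, on which 1 unit is a 2-fold difference, and levels of different probe sets cannot be set against each other. The number of arrays, 3 a group, limits the precision.

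Each microvillus of the brush border holds a core of parallel actin filaments. Villin, espin, plastins and EPS8 proteins bundle or cap these filaments, ezrin and class I myosins tie them to the membrane, and protocadherins link the tips of neighbouring microvilli. Filament turnover depends on cofilin, which severs actin filaments until LIM kinases phosphorylate it. Slingshot phosphatases make cofilin active again. Branched networks grow from the Arp2/3 complex, which WASP-family proteins switch on. Enterocytes lengthen their microvilli as they leave the crypt for the villus.

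On the 1 Sox9 probe set that parted the groups, KO arrays read 2.42 to 2.75 and WT arrays 5.84 to 7.61, a difference of -3.93 (limma adjusted p = 0.188). On a second, the groups overlapped, at 5.33 to 6.34 against 2.68 to 6.23, and the place of either probe set relative to the deletion is not known here. The epithelial markers Epcam, Cdh1, Krt8, Krt18, Krt19 and Krt20 read at least 12.8 on every array. The markers of smooth muscle (7), fibroblasts (6) and endothelium (5) all read at most 3.79, under the filter of 4, and these cells are rich in actin regulators of their own. Leukocyte markers were present. Their summed log2 level was lowest on WT 1, at 36.3 over 7 markers against 48.7 to 49.9 on the other WT arrays and 48.3 to 53.5 on KO arrays. WT 1 was the lowest array for Ptprc, Cd3e, Cd3g and Csf1r, but not for Lyz2, Cd79a or Itgam. Lyz2 differed by -1.13, with every KO mouse below every WT mouse, while the other 6 differences were positive. Xist read 12.29 to 13.35 on the KO arrays and 13.17 on WT 3, but 1.92 on WT 1 and 3.72 on WT 2, the arrays on which the Y-linked genes Eif2s3y, Kdm5d and Uty were high. These signals mark the KO mice and WT 3 as female and WT 1 and WT 2 as male. Sex is therefore partly confounded with genotype in every KO minus WT difference given here. The 3' minus 5' difference of the beta-actin control probe sets, a sign of RNA or labelling quality, was 2.65 on WT 3 and 1.22 to 1.71 on the other 5 arrays.

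Most of these genes differed between Sox9-deficient and control mice by less than the spread among mice of 1 group. Of 39 genes, 38 passed the filter of a mean of at least 4, and 0 of the 37 other than Limk2 passed limma's test at an adjusted p of 0.05, where 0.011% of all 18108 probe sets tested passed. At an unadjusted p under 0.05 the 37 held 1 gene, Pls3, against 3.62% of probe sets. The 3 KO and the 3 WT arrays did not overlap for 4 of 38 (10.5%), namely Limk2, Pls3, Actr3 and Wasl, against 9.12% of all probe sets tested, so that share lies near the background. Limk2, the gene chosen for it, was the higher one (5.09% of probe sets), and the other 3 were lower in KO (4.03%). Differences ran from -1.93 for Pls3 to 0.52 for Limk2, and 26 of 38 lay within 0.25 of 0. The median was -0.04 (16 positive, 22 negative), beside 0.04 over the 9679 genes tested with 1 probe set each. For 30 of 38 genes the range among the KO mice and the range among the WT mice were each larger than the difference between the group means. A range of single mice tends to exceed a difference of means. No such count over all genes is given here, so this is not shown to be particular to these genes.

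**Figure D1:**
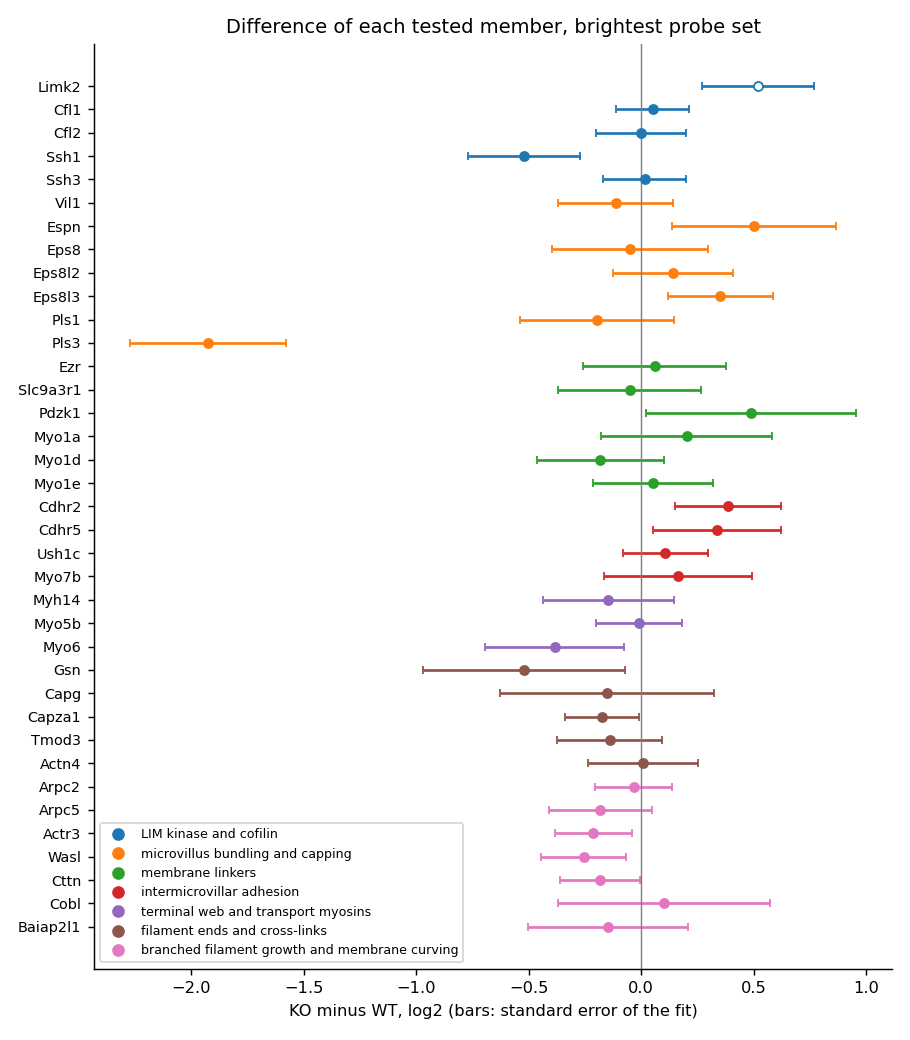
KO minus WT difference on the log2 scale (horizontal axis) of 37 tested genes (vertical axis, coloured by role), each from its brightest probe set, with the standard error of the limma fit as a bar. Limk2, the open circle, was chosen for its difference and carries no test; Pls3 at -1.93 stands apart from the other genes, which lie between -0.52 and 0.52.

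Limk2 encodes one of the 2 LIM kinases. On its brightest probe set it read 9.19, 9.01 and 9.36 in KO 1 to KO 3 and 8.85, 8.21 and 8.94 in WT 1 to WT 3. Every KO mouse lay above every WT mouse, with WT 2 lowest and WT 3 close under KO 2. The group means were 9.19 ± 0.17 (SD, n = 3) over KO mice against 8.67 ± 0.40 (SD, n = 3) over WT mice, a difference of 0.52, or 1.43-fold, which was 0.29 without WT 2. A second Limk2 probe set read 8.39, 8.28 and 8.51 in KO 1 to KO 3 and 7.48, 6.83 and 7.28 in WT 1 to WT 3. Here the groups stood further apart, at 8.39 ± 0.12 (SD, n = 3) over KO mice against 7.20 ± 0.33 (SD, n = 3) over WT mice, and the difference of 1.19, or 2.28-fold, ran from 1.01 to 1.33 with any array left out. Against WT 3 alone, the control that shares the Xist signal of the KO arrays, the difference was 0.25 on the brightest and 1.11 on the second probe set. The third Limk2 probe set read at most 2.67 everywhere. Limk1, the other LIM kinase, read 3.13, 2.91 and 2.91 in KO 1 to KO 3 and 2.81, 2.94 and 3.10 in WT 1 to WT 3, with all of its 3 probe sets under the filter in both groups.

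Slingshot phosphatases oppose the LIM kinases. The phosphatase gene Ssh1, shown after its values were seen, read 6.48, 6.73 and 7.29 in KO 1 to KO 3 and 7.27, 7.51 and 7.27 in WT 1 to WT 3. KO 3 reached the level of the WT mice and the other KO mice lay below them, a difference of -0.52 ± 0.25 (SE, limma adjusted p = 0.999) that was -0.34 without KO 1. Ssh3, from the same phosphatase family, differed by 0.01.

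Cofilin, the substrate of the pathway, gave different values on its probe sets. Cfl1, the main cofilin of non-muscle cells, read 14.68, 14.51 and 14.48 in KO 1 to KO 3 and 14.51, 14.59 and 14.43 in WT 1 to WT 3 on its brightest probe set, and the groups overlapped with a difference of 0.05 ± 0.16 (SE). Its second probe set read 12.71, 12.60 and 12.84 in KO 1 to KO 3 and 12.51, 12.21 and 11.81 in WT 1 to WT 3, with all KO mice above all WT mice. That difference of 0.54 ± 0.23 (SE) missed the test (limma adjusted p = 0.999) and was 0.36 without WT 3, the lowest array and the one with the largest beta-actin 3' minus 5' difference. With that 3' minus 5' difference as a term in the fit, the Cfl1 difference was 0.45. Cfl2, the cofilin best known from muscle, had group means of 9.18 in KO and 9.18 in WT, and KO 1 at 9.51 lay above the other 5 arrays (8.99 to 9.21).

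**Figure D2:**
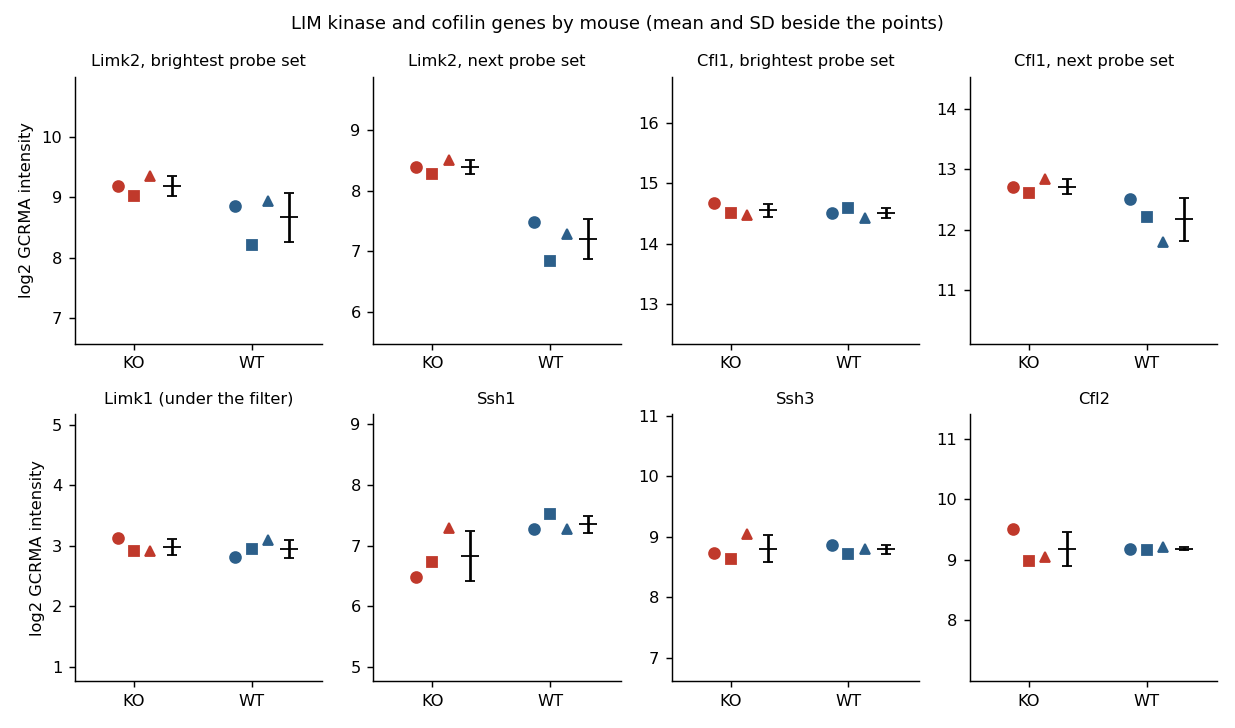
Log2 GCRMA intensity (vertical axis, each panel spanning the same number of units) of the LIM kinase, cofilin and slingshot genes in KO and WT mice (circle, square and triangle for mouse 1, 2 and 3 of a group, numbers that do not pair mice), with the mean and SD (n = 3) in black. Both Limk2 probe sets and the second Cfl1 probe set have every KO mouse above every WT mouse, and Limk1 lies under the filter of 4 in both groups.

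In the microvillus core, Pls3 was the gene that differed most. It encodes plastin 3, an actin-bundling protein found in many tissues, whose gene is on the X chromosome. Its only probe set read 5.30, 4.14 and 4.68 in KO 1 to KO 3 and 7.07, 6.43 and 6.41 in WT 1 to WT 3. All KO mice lay below all WT mice, with KO 1 nearest to them, at 4.71 ± 0.58 (SD, n = 3) over KO mice against 6.63 ± 0.38 (SD, n = 3) over WT mice. The difference of -1.93 ± 0.35 (SE), or 3.8-fold, did not pass (limma adjusted p = 0.443, and from 0.319 to 0.9997 over the alternatives). The sign was negative under each of them, with values between -2.22 without KO 1 and -1.64 without KO 2, and was -1.70 against WT 3 alone. Of 5 Paneth cell markers, 3 had every KO mouse below every WT mouse, namely Mmp7 (-4.71), Lyz1 (-0.75) and Itln1 (-0.58). The groups overlapped for Pla2g2a (-0.72) and Ang4 (0.06), and 0 of 5 passed the test. The summed log2 level was 60.7 to 64.4 on KO and 68.1 to 70.9 on WT arrays, and Mmp7 made up most of that difference. Of 6 enteroendocrine markers, 2, Gcg (-1.09) and Cck (-0.71), had every KO mouse below every WT mouse. Their set's summed levels overlapped, at 52.2 to 54.6 on KO and 53.8 to 57.9 on WT arrays. Tuft cell markers did not go 1 way. Dclk1 differed by -1.68 without overlap, but Avil by -0.09 and Trpm5 by 0.15 with overlap, and the other 2 of 5 lay under the filter. The part of Paneth, enteroendocrine or tuft cells in the Pls3 result was not tested, and in bulk RNA fewer cells of a type and less RNA per cell cannot be told apart.

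The values of the other plastins were ordered differently. Pls1, plastin 1, is the plastin of intestinal microvilli and read 12.66, 12.79 and 13.44 in KO 1 to KO 3 and 12.70, 13.75 and 13.03 in WT 1 to WT 3. WT 2 was highest and KO 1 and WT 1 lowest, so the groups overlapped, with a difference of -0.20 ± 0.34 (SE, limma adjusted p = 0.999). Lcp1, the leukocyte plastin and not itself among the 43 genes, read 9.25, 9.58 and 9.12 in KO 1 to KO 3 and 8.10, 8.53 and 9.53 in WT 1 to WT 3. WT 1 was lowest, as for the summed level of the leukocyte markers though not for each of them, and the difference was 0.60. The unequal changes of Pls1 and Pls3 were not tested against each other.

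**Figure D3:**
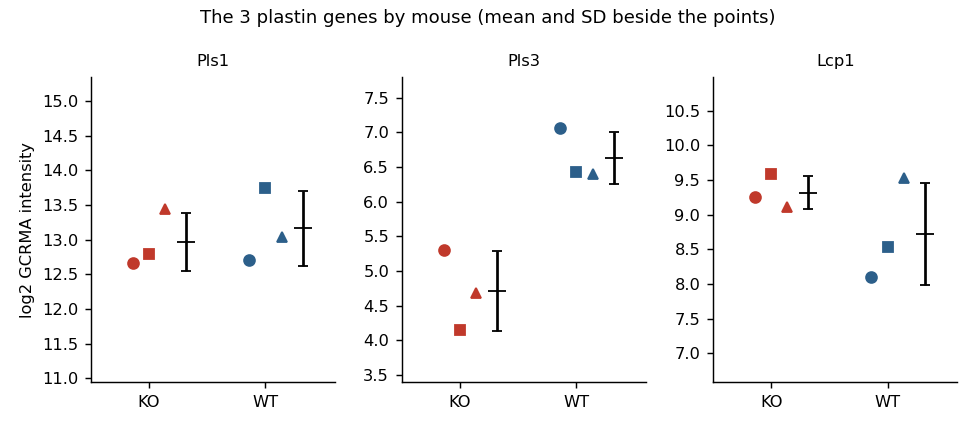
Log2 GCRMA intensity (vertical axis) of Pls1, Pls3 and Lcp1 in KO and WT mice (circle, square and triangle for mouse 1, 2 and 3), with the mean and SD (n = 3) in black. The KO mice lie below all WT mice for Pls3, at 4.14 to 5.30 against 6.41 to 7.07, while the groups overlap for Pls1 and Lcp1.

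Promoters of 3 genes are shown because 2 of them gave the largest differences in each direction and the remaining one, Vil1, is the classical brush border gene. RefSeq promoters (GRCm38.p6) were found for 35 of the 43 genes, 47 starts in all, and the 250 bases before each start were searched on both strands for ACAATG and ACAAAG, hexamers that SOX factors are known to bind. The latter shares letters with the site of TCF factors. A match lay in 6 of 47 (12.8%), against 25.2% of all 32851 promoters of the same length. Capitals mark matches, and each sequence runs 5′ to 3′ on the gene's strand up to the base before the start. The Limk2 sequence is the farthest upstream of its 3 starts, chr11:3409239-3409488 (minus strand), and none of the 3 had a match. For Pls3 the start with a match, the farthest downstream of 3, is given, and the other 2 had no match. It lies at chrX:75843022-75843271 (minus strand), and the match begins 43 bases before the start. The Vil1 promoter, chr1:74409134-74409383 (plus strand), has a match that begins 28 bases before the start. A match is a run of letters here, not a shown site.
Limk2: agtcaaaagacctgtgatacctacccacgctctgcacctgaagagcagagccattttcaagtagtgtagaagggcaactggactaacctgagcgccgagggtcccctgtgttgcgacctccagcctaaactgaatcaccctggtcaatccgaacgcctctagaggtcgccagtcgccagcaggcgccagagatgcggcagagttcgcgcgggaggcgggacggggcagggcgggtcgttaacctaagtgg
Pls3: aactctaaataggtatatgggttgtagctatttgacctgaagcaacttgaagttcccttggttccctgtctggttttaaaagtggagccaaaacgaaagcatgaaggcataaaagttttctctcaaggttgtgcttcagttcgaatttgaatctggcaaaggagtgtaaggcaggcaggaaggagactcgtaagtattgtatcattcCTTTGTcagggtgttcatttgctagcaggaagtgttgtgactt
Vil1: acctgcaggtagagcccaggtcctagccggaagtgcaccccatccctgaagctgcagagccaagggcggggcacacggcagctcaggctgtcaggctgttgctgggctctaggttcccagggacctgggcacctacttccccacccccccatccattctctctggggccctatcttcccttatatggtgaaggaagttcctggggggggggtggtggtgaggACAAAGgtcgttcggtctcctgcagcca

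Vil1 encodes villin, which bundles the core filaments and severs them at high calcium. It read 14.05, 14.19 and 14.69 in KO 1 to KO 3 and 14.12, 14.73 and 14.42 in WT 1 to WT 3, with KO 3 and WT 2 highest, KO 1 and WT 1 lowest, and a difference of -0.11 ± 0.25 (SE, limma adjusted p = 0.999). Espn, the gene of the bundler espin, read 9.71, 9.07 and 9.83 in KO 1 to KO 3 and 8.87, 9.72 and 8.52 in WT 1 to WT 3. WT 3 and WT 1 lay below the KO mice and WT 2 within their range, and the difference of 0.50 was 0.24 without WT 3 and 0.84 without WT 2. Eps8, whose product caps and bundles filaments at microvillus tips, read 11.17 on WT 2 and at most 10.62 on the other 5 arrays. The difference of -0.05 became 0.33 without it. The related genes Eps8l2 and Eps8l3 differed by 0.14 and 0.35, the latter by 0.18 without KO 3. Each of these genes had an adjusted p of 0.999 in limma.

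Among the genes that tie the core to the membrane, Ezr encodes ezrin, which links actin to membrane proteins. It read 12.48, 12.26 and 12.76 in KO 1 to KO 3 and 11.83, 12.95 and 12.54 in WT 1 to WT 3. The WT mice alone covered 1.13 units, from WT 1 to WT 2, and the KO mice lay inside that range, with a difference of 0.06 ± 0.32 (SE, limma adjusted p = 0.999). Slc9a3r1, also called EBP50 or NHERF1, is the scaffold that binds ezrin, and its 3 probe sets differed by -0.05, -0.09 and -0.04. Pdzk1, a related scaffold for transporters, read 11.22, 10.38 and 11.67 in KO 1 to KO 3 and 9.77, 11.14 and 10.88 in WT 1 to WT 3. WT 1 was lowest, and the difference of 0.49 was 0.08 without WT 1 and 0.84 without KO 2. Myo1a, the brush border myosin that bridges core and membrane, read 11.24, 12.31 and 12.64 in KO 1 to KO 3 and 11.68, 12.16 and 11.75 in WT 1 to WT 3. KO 1 was lowest of all 6 and KO 3 highest, and the difference of 0.20 ± 0.38 (SE) was 0.61 without KO 1 (limma adjusted p = 0.999). Myo1d and Myo1e, genes of further class I myosins, differed by -0.18 and 0.05.

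The intermicrovillar adhesion genes all had positive differences, 4 of 4, and 0 passed the test. Cdhr2 encodes a protocadherin of microvillus tips and read 12.46, 12.31 and 12.74 in KO 1 to KO 3 and 11.73, 12.33 and 12.31 in WT 1 to WT 3. WT 1 was the array that stood low, KO 2 lay level with WT 2 and WT 3, and the difference of 0.39 ± 0.24 (SE) became 0.19 without WT 1 (limma adjusted p = 0.999). Its partner protocadherin gene Cdhr5 read 12.13, 11.87 and 12.77 in KO 1 to KO 3 and 11.67, 12.21 and 11.88 in WT 1 to WT 3, with KO 3 highest and a difference of 0.34 that was 0.08 without KO 3. Ush1c encodes the scaffold harmonin and Myo7b the motor that carries the complex to the tip, and they differed by 0.11 and 0.16. Without WT 1 these became 0.01 and -0.13.

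The terminal web anchors the microvilli below the membrane, and its non-muscle myosin gene Myh14 averaged 10.82 ± 0.51 (SD, n = 3) over KO mice against 10.97 ± 0.22 (SD, n = 3) over WT mice, a difference of -0.15 that was 0.13 without KO 1. Myo5b, a motor for recycling endosomes whose loss causes microvillus inclusions, differed by -0.01, with every array between 11.44 and 11.91. Myo6, a motor toward the base of the microvillus, read 9.82, 10.60 and 10.88 in KO 1 to KO 3 and 10.55, 10.94 and 10.96 in WT 1 to WT 3, and differed by -0.38 and by -0.08 without KO 1. KO 1 was the lowest of the 6 arrays for Myh14 and Myo6, as for Wasl and Vil1, and the lowest KO array for 21 of the 38 tested genes, against 38.2% of all genes.

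Genes that act on filament ends and cross-links had 4 negative differences of 5, and 0 passed. Gsn encodes gelsolin, which severs and caps filaments, and read 9.74, 8.16 and 9.09 in KO 1 to KO 3 and 9.20, 10.10 and 9.26 in WT 1 to WT 3. KO 2 was lowest and WT 2 highest, and the difference of -0.52 ± 0.45 (SE) was -0.11 without KO 2 and -0.89 without KO 1 (limma adjusted p = 0.999). The 3 other tested Gsn probe sets differed by -0.57, -0.52 and -0.49, and KO 2 was lowest on each. Capg, a gelsolin relative that caps without severing, read 6.21, 7.06 and 6.22 in KO 1 to KO 3 and 6.17, 7.66 and 6.12 in WT 1 to WT 3, high on KO 2 and WT 2 and close to 6.2 on the other 4 arrays. Capza1, a subunit of the barbed-end capping protein, differed by -0.17 (-0.11 without KO 1), Tmod3, which caps pointed ends, by -0.14, and Actn4, an alpha-actinin that cross-links filaments, by 0.01.

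Of the 7 branched filament and membrane curving genes, 6 had negative differences and 0 passed the test. Actr3, the ARP3 subunit of the Arp2/3 complex, read 13.42, 13.37 and 13.44 in KO 1 to KO 3 and 13.48, 13.81 and 13.58 in WT 1 to WT 3. The KO mice lay within 0.07 of each other and just below WT 1, so the groups did not overlap. The difference of -0.21 ± 0.17 (SE) missed the test (limma adjusted p = 0.999) and was -0.12 without WT 2. On the next 2 Actr3 probe sets the groups overlapped, with differences of -0.15 and 0.01. Wasl encodes N-WASP, which switches the complex on, and read 10.37, 10.79 and 10.82 in KO 1 to KO 3 and 10.88, 10.90 and 10.96 in WT 1 to WT 3. All KO mice lay below all WT mice, KO 1 well below, and without KO 1 the difference of -0.26 ± 0.19 (SE) was -0.11 (limma adjusted p = 0.999). The other tested Wasl probe sets overlapped, at -0.20 and -0.49.

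Arpc2, another subunit of the complex, read 13.56, 13.39 and 13.59 in KO 1 to KO 3 and 13.39, 13.58 and 13.68 in WT 1 to WT 3, overlapping and with a difference of -0.03 ± 0.17 (SE, limma adjusted p = 0.999). Arpc5, a further subunit, differed by -0.18 and Cttn, the branch-stabilising cortactin, by -0.18, or -0.089 without WT 2. Cobl encodes cordon-bleu, a nucleator of linear filaments in the terminal web, and ran from 8.64 on WT 1 to 10.27 on WT 3, so its difference of 0.10 was -0.36 without WT 1 and 0.46 without WT 3. Baiap2l1, an I-BAR protein that curves the membrane, differed by -0.15.

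The brush border genes were high or low together from mouse to mouse within each group. Among the 17 genes of the microvillus core, the membrane linkers and the adhesion complex, roles joined for this count after their values were seen, WT 2 was the highest WT array for 16 and WT 1 the lowest for 15. KO 3 was the highest KO array for 16 of the 17, while the lowest was KO 2 for 10 and KO 1 for 7. KO 3 was also highest among KO for 76.2% of the 21 genes of the other roles and 57.5% of 73 other pathway genes, so this was not confined to the 17. WT 2 was highest among WT for 52.4% of those 21 genes and 35.6% of the 73, and WT 1 lowest for 47.6% and 43.8%. Over the 9679 genes tested with 1 probe set each, WT 2 was highest among WT for 31.8%, WT 1 lowest for 31.6% and KO 3 highest among KO for 33.6%. Among the 17, Pls3 was the exception for WT 2, WT 1 and KO 3, joined by Espn for the lowest WT array. The median of WT 2 minus WT 1 over the 17 genes was 0.61, with Pdzk1 at 1.37, or 2.59-fold, Eps8 at 1.17, Ezr at 1.13 and Pls1 at 1.05. The median size of their KO minus WT differences was 0.18. That value compares means of 3 mice, whereas WT 2 and WT 1 are single arrays picked as the extremes for these same genes. The values are therefore not like for like.

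**Figure D4:**
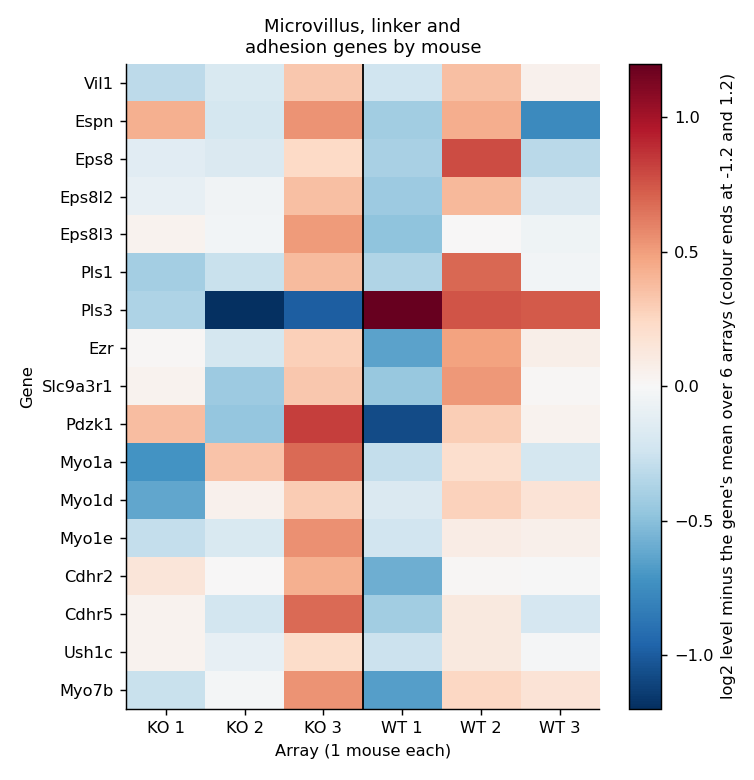
Log2 level minus the gene's own mean over 6 arrays (colour, red above and blue below) for the 17 microvillus, linker and adhesion genes (rows) on each array (columns, KO left of the line and WT right). KO 3 and WT 2 are red and WT 1 blue for nearly all genes, whereas Pls3 is blue on all KO and red on all WT arrays.

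Markers of villus enterocytes, the cells with the tallest brush border, were ordered much the same. Of 16 markers, WT 1 was the lowest WT array for 15, WT 2 the highest for 12 and KO 3 the highest KO array for 11. The median deviations from each gene's mean were KO 1 to KO 3 at 0.09, -0.29 and 0.48, with WT 1 to WT 3 at -0.64, 0.19 and 0.12 for the markers, and KO 1 to KO 3 at -0.10, -0.18 and 0.38, with WT 1 to WT 3 at -0.42, 0.30 and -0.01 for the 17 genes. Both sets ordered the 6 arrays the same way, from KO 3, WT 2, WT 3 and KO 1 down to KO 2 and WT 1. The summed log2 level of the 16 markers was 204.2 to 214.9 on KO arrays and 197.7 to 211.8 on WT arrays, with 0 of 16 past the test. Their differences were positive for 12 and negative for 4, beside 5440 positive of all 9679 genes. Apoa4 (0.82) and Treh (0.77) had every KO mouse above every WT mouse, 2 of 16 against 5.09% of all probe sets tested. Alpi differed by 0.95 with overlap. The part of enterocyte content in the levels of the brush border genes was not tested. The 21 genes of the other roles had KO 1 to KO 3 at -0.23, -0.02 and 0.10, with WT 1 to WT 3 at -0.04, 0.17 and 0.03, so that KO 1, and not WT 1, was lowest.

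**Figure D5:**
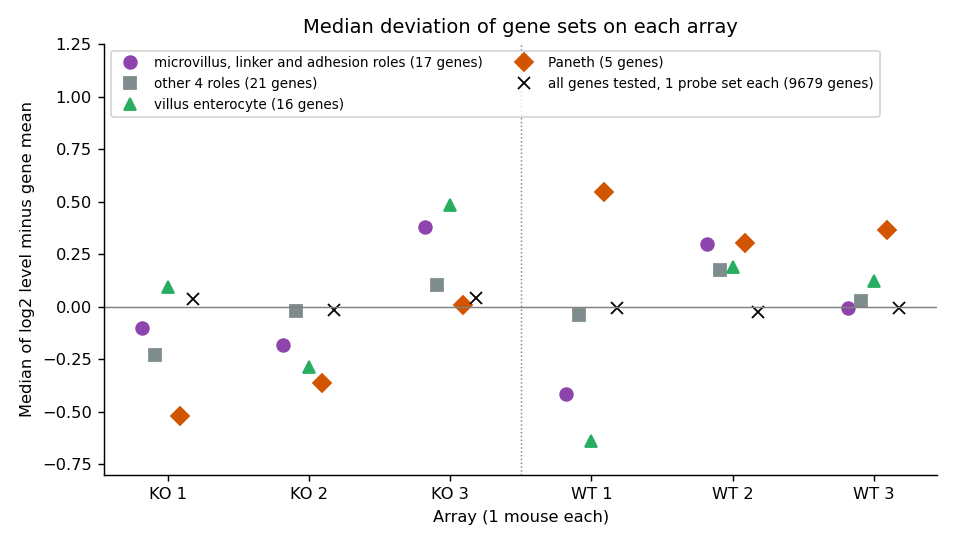
Median over each gene set of the log2 level minus the gene's mean (vertical axis) on each array (horizontal axis), for the 17 microvillus, linker and adhesion genes, the 21 genes of the other roles, 16 villus enterocyte markers, 5 Paneth markers and all 9679 genes tested. The brush border genes and enterocyte markers are lowest on WT 1 (-0.42 and -0.64) and highest on KO 3 (0.38 and 0.48), while the Paneth markers are higher on the WT arrays.

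Probe sets of a gene did not always go the same way. In all, 90 probe sets had 1 of the 39 genes as their single symbol and 67 were tested. Of 18 genes with more than 1 tested probe set, 6 had tested probe sets of both signs. Cttn ran from -0.18 on its brightest to 0.71 on its dimmest tested probe set, where WT 3 read 4.50 and the other arrays 5.83 to 7.57. Tmod3 was -0.14 on the brightest and 0.13 and 0.27 on the next, on which WT 3 was the lowest WT array too. WT 3 is the array with the largest beta-actin 3' minus 5' difference, and its part in these values was not tested.

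Of 99 other genes of actin dynamics and the brush border, 73 were tested. In limma 0 rose and 0 fell at an adjusted p of 0.05 (0.011% of all probe sets passed), and 2 had an unadjusted p under 0.05. The groups did not overlap for 4 of 73, with 9.12% of all probe sets as background. Of these, 3 were lower in KO and 1, Tpm1 (0.08), was higher. The median difference of the 73 was -0.01. Evl, an Ena/VASP protein that promotes filament elongation, gave the largest difference of the 73. It read 6.27, 6.05 and 5.66 in KO 1 to KO 3 and 7.89, 7.34 and 8.27 in WT 1 to WT 3, all KO mice below all WT mice, with a difference of -1.84 ± 0.29 (SE, limma adjusted p = 0.344). Cobll1, a relative of cordon-bleu, differed by -0.43, without overlap. Moesin, encoded by the ezrin relative Msn, differed by 1.26, with WT 1 at 3.64 below all other arrays, as for the summed level of the leukocyte markers. The part of Paneth, enteroendocrine, tuft or leukocyte RNA in the Evl and Msn values was not tested.

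The 12 genes that bind monomers or work with cofilin ran from -0.22 to 0.15. Among them Dstn, which encodes the cofilin relative destrin, read 13.36, 13.30 and 13.32 in KO 1 to KO 3 and 13.43, 13.66 and 13.56 in WT 1 to WT 3, just without overlap (-0.22), while Tmsb4x differed by -0.16 and the beta-actin gene Actb by -0.17. In the set of Arp2/3, WAVE and formin genes, Arpc1a (0.23) and Diaph3 (0.32) followed Evl. For filament-binding genes the smallest p-values were those of Lasp1 (-0.40), Lcp1 (0.60) and Mylk (-0.42), and Myo7a (-0.25) came next after Cobll1 and Msn among membrane linkers.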

How the data were processed

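Single-colour Affymetrix arrays of 3 KO and 3 WT mice were analysed from the deposited table of log2 intensities, which the authors made with GCRMA, per the submitters' processing notes, which also name limma; their versions are unknown here. GCRMA compresses differences near its floor. All 6 columns were used, and 0 columns belonged to other samples. Array controls (64 probe sets) were left out of the tests, which kept 45037, and 34945 of these had 1 gene symbol, 932 several and 9160 none. Symbols came from the platform annotation; 34741 matched RefSeq (GRCm38.p6) by gene identifier and 0 changed.

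The 18108 probe sets whose mean over the 6 arrays reached 4 entered a two-sided limma fit (version 3.58.1 under R 4.3.3, lmFit then eBayes, 4 residual and 2.59 prior degrees of freedom), and p-values were adjusted by Benjamini-Hochberg over all of them. The fit was also run on simulated data with 200 changed probe sets. Its outcome is not given here, so how small a difference the fit could detect is not shown. With 3 mice a group the smallest exact permutation p is 0.1, and the p-values describe the spread between these 6 mice. The members, lists and tests were chosen with earlier results of these data known. The results of 1 tested gene are not reported here, though the counts include it. For the rest, values in every array are given for Limk2, genes whose groups do not overlap or whose unadjusted p is under 0.05, and the first gene of each role, while second probe sets, Ssh1, Pls1, Lcp1, Eps8, Espn, Pdzk1, Cdhr5, Myo6 and Capg were added after their values were seen; of 4 of the sets of other pathway genes up to 3 with the smallest p are named. Among the other pathway genes Tpm1 was named as well, because its groups did not overlap. Alternatives were a replicate block, 2 other filters, quantile normalization, median centring, another prior, averaging the probe sets of a gene and each array left out. Fits with a Y-linked term, with a beta-actin 3' minus 5' term or on the 4 arrays with high Xist were added after seeing the data.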

Additional observations from a re-analysis of the deposited data

How the results depend on the processing

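The count of members past the adjusted threshold was 0 in the main fit and under all 16 alternatives, as was that of the other pathway genes, and the lowest adjusted p of any tested member other than Limk2 was 0.319 (limma, Pls3 without KO 1). The count over all probe sets was 2 in the main fit, 0 with a replicate block, with no filter, with a Y-linked term or on the arrays with high Xist, 1 with a filter at 6, 4 with quantile normalization and 0 to 16 with an array left out. The labels do not say that equal numbers mark littermates, so the replicate block carries no known pairing. Deviations of same-numbered mice correlated at r = -0.05, -0.29 and 0.03 over probe sets, and those of differently numbered mice at -0.10 to 0.16. These values cannot show which mice were littermates. Members whose groups do not overlap numbered 4 in the main fit. With all 6 arrays kept, they numbered 3 with a filter at 6 or averaged probe sets, 5 with median centring and 6 with quantile normalization. The count was 4 to 10 with an array left out, and 17 when WT 3 was the only control. With fewer arrays in a group, the groups of any gene overlap less often, and the share over all probe sets was not counted under these settings. The larger counts are therefore not shown to mean more separation of the members. The median difference over all 38 tested members, -0.04, ran from -0.20 without WT 1 to 0.10 without WT 2. Of 37 tested members other than Limk2, 13 kept their sign in every setting. Each of the following changed sign when an array was left out, with its lowest and highest value: Cfl1 -0.011 to 0.089, Cfl2 -0.17 to 0.093, Ssh3 -0.11 to 0.10, Vil1 -0.30 to 0.040, Eps8 -0.26 to 0.33, Eps8l2 -0.039 to 0.37, Pls1 -0.44 to 0.097, Ezr -0.25 to 0.32, Slc9a3r1 -0.29 to 0.19, Myo1a -0.086 to 0.61, Myo1d -0.38 to 0.084, Myo1e -0.21 to 0.21, Myo7b -0.13 to 0.34, Myh14 -0.37 to 0.13, Myo5b -0.12 to 0.11, Capg -0.43 to 0.35, Tmod3 -0.25 to 0.084, Actn4 -0.17 to 0.20, Arpc2 -0.11 to 0.030, Arpc5 -0.30 to 0.011, Cobl -0.36 to 0.46, Baiap2l1 -0.38 to 0.14. The sign also turned under quantile normalization (Ssh3 -0.020 and Actn4 -0.040), median centring (Cfl2 0.0061), averaging the probe sets of a gene (Ezr -0.0027, Myo1e -0.023, Tmod3 0.016 and Cttn 0.14), the Y-linked term (Eps8 0.34, Slc9a3r1 0.0056, Myo1e -0.028, Myo7b -0.051, Myo5b 0.22, Capg 0.43, Arpc5 0.076, Cobl -0.56 and Baiap2l1 0.34), the beta-actin term (Cfl2 0.021 and Actn4 -0.069) and against WT 3 alone (Eps8 0.30, Ezr -0.042, Myo1e -0.036, Myo7b -0.087, Myo5b 0.21, Capg 0.38, Arpc5 0.057, Cobl -0.60 and Baiap2l1 0.32). The cause of these turns was not tested. Limk2 ran from 0.22 with the Y-linked term to 0.66 without WT 3. It was chosen as higher in KO on these same arrays, so its constant sign is a description and no support.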
